A study of Mus musculus with 9 samples.

Results

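Cadherins and protocadherins are membrane proteins whose extracellular repeats bind the same or a related protein on the next cell in a calcium-dependent way. The 54 genes described here were those of 18193 measured mouse genes with a platform symbol of the form Cdh or Pcdh with a number, or of a clustered protocadherin, leaving out Pcdh15. They comprised 5 type I and 11 type II classical cadherins, 5 other Cdh genes, 3 delta-1 and 5 delta-2 protocadherins, 2 other single protocadherins, 22 genes of the beta cluster and 1 of the gamma cluster.

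RNA was measured on 9 Affymetrix arrays of 3 cultured cell groups, 3 arrays each, all C57BL/6 and grown with FGF and EGF (20 ng/ml each) on low-attachment plastic. Glioma stem cells (GSC) came from optic gliomas (tissue source optic nerve) of 3-month-old mice of genotype Nf1+/-GFAP CKO, where one Nf1 allele is missing throughout and GFAP names the astroglial promoter that drives Cre. Nf1-null neural stem cells (NSC) were grown from the third ventricle zone of postnatal day 1 Nf1flox/flox pups and were given a Cre virus. Wild-type cells were cells of the same kind and the same floxed genotype that were given a control LacZ virus. The labels speak of independent cultures for the NSC and give no such statement for the GSC, so p-values measure the spread between these samples, which may be technical. Against both NSC groups the GSC differed in tumour origin, age, tissue and genotype together, and only the NSC labels name a virus. These cannot be told apart.

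Classical cadherins bind beta-catenin and p120-catenin with their cytoplasmic tails, and through alpha-catenin they link cell contacts to actin. N-cadherin, the product of Cdh2, holds neural progenitors together, whereas type II cadherins and delta protocadherins are expressed in partly overlapping patches that sort cell groups in the developing brain. Clustered protocadherins lie in tandem arrays and are chosen in combinations by single neurons, which gives these cells distinct surface identities.

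The type II cadherin Cdh10 and the delta protocadherins Pcdh7 and Pcdh17 rose in GSC against both NSC groups, while Cdh2 did not pass in any comparison. Of the 54 genes, 4 rose and 0 fell in GSC against Nf1-null cells (limma, adjusted p under 0.05), or 7.41% of them, where 1.75% of all genes passed (0.671% higher and 1.08% lower). Against wild-type cells 7 rose and 1 fell, or 14.8%, where 9.06% of all genes passed (3.46% higher and 5.6% lower). In Nf1-null against wild-type cells 0 of 54 passed, where 0% of all genes did, although 15 of the 54 and 3048 of all 18193 genes had an unadjusted p under 0.05. The median log2 difference of the 54 genes was 0.56 in GSC against Nf1-null cells, beside -0.04 over all genes, and 44 of 54 were positive. It was 0.13 against wild-type cells, beside -0.09 over all genes, and -0.24 in Nf1-null against wild-type cells, beside -0.06. The members were chosen as a gene family, and these medians describe them without a test.

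The 2 comparisons of GSC share the same arrays, as do the 2 with Nf1-null and the 2 with wild-type cells. With the replicate number as a block, 0 of the 54 passed in GSC against Nf1-null cells, where 1.06% of all genes did, and 0 in Nf1-null against wild-type cells, where 0% did. When only the 9097 genes whose log2 signal averaged 9.27 or more were tested, 26 of the 54 were among them. The average was taken over all 9 arrays, so a gene can enter through high GSC signals, as Pcdhb3 did. In that test of the brighter genes 8 of 26 rose against Nf1-null cells (2.9% of all brighter genes rose and 3.77% fell) and 10 of 26 against wild-type cells (11.4% rose and 15.8% fell). Of the same 26, 1 fell in Nf1-null against wild-type cells, where 2.09% of the brighter genes fell and 2.29% rose. In either direction 6.67%, 27.2% and 4.38% of the brighter genes passed in these 3 comparisons, and with the replicate block 10.4% did in GSC against Nf1-null cells and 11.9% in Nf1-null against wild-type cells. A fit with a mean-variance trend called 4.05%, 14.7% and 1.81% of all genes. Without any test, 16 of the 54 were higher and 1 was lower in GSC than in Nf1-null cells with no overlap between the arrays, as were 9.24% and 12.7% of all genes. Against wild-type cells 15 were higher and 9 were lower in this sense (13.9% and 20.9% of all genes), and in Nf1-null against wild-type cells 3 and 13 (9.75% and 14.1%).

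Nf1, the targeted gene, had signals of 622.6, 600.1 and 548.9 in GSC, 430.3, 645.8 and 577.0 in Nf1-null cells and 1139.5, 919.5 and 999.9 in wild-type cells. Every wild-type array was above all others, with log2 differences of -0.78 in GSC (adjusted p = 0.0441) and -0.90 in Nf1-null cells (adjusted p = 0.123) against wild-type cells. Whether the probes lie in the deleted part was not tested. GSC arrays 2 and 3 correlated at 0.989 across the brighter genes, and array 1 correlated with them at 0.950 and 0.944. Its correlation with Nf1-null array 1 was also 0.944, so array 1 stood apart from its group. Without it, 8 of 54 members were called against Nf1-null cells, where 3.96% of all genes were. Without array 2 or 3 of that group 0 members were, where 0.407% and 0.423% of all genes were. Without any 1 Nf1-null array 0 members were, where 0.396% to 0.577% of all genes were. Without wild-type array 1, 2 or 3 there were 1, 1 and 2 such calls, beside 0.808%, 0.649% and 0.852% of all genes. Against wild-type cells the 8 calls became 7, 1 and 2 without GSC array 1, 2 or 3. They became 5 without any 1 Nf1-null array, and 2, 1 and 2 without wild-type array 1, 2 or 3. Over all genes the 1649 calls of that comparison became 214 to 1756 without 1 array. The ratio of 3' to 5' Actb signal, a measure of RNA quality, was 1.73 to 1.85 in GSC, 1.49 to 1.67 in Nf1-null cells and 1.87 to 1.88 in wild-type cells. Its part in the differences below was not tested. Sox2 and Fabp7, which mark neural stem cells, had signals of at least 28137.3 and 83913.4 on every array. Of 8 such markers 1, Msi1, fell in GSC against wild-type cells (log2 -1.12, adjusted p = 0.0337). In that comparison 3 of the 8 were positive and 5 negative, from -3.21 for Hes5 to 1.48 for Nes.

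**Figure D1:**
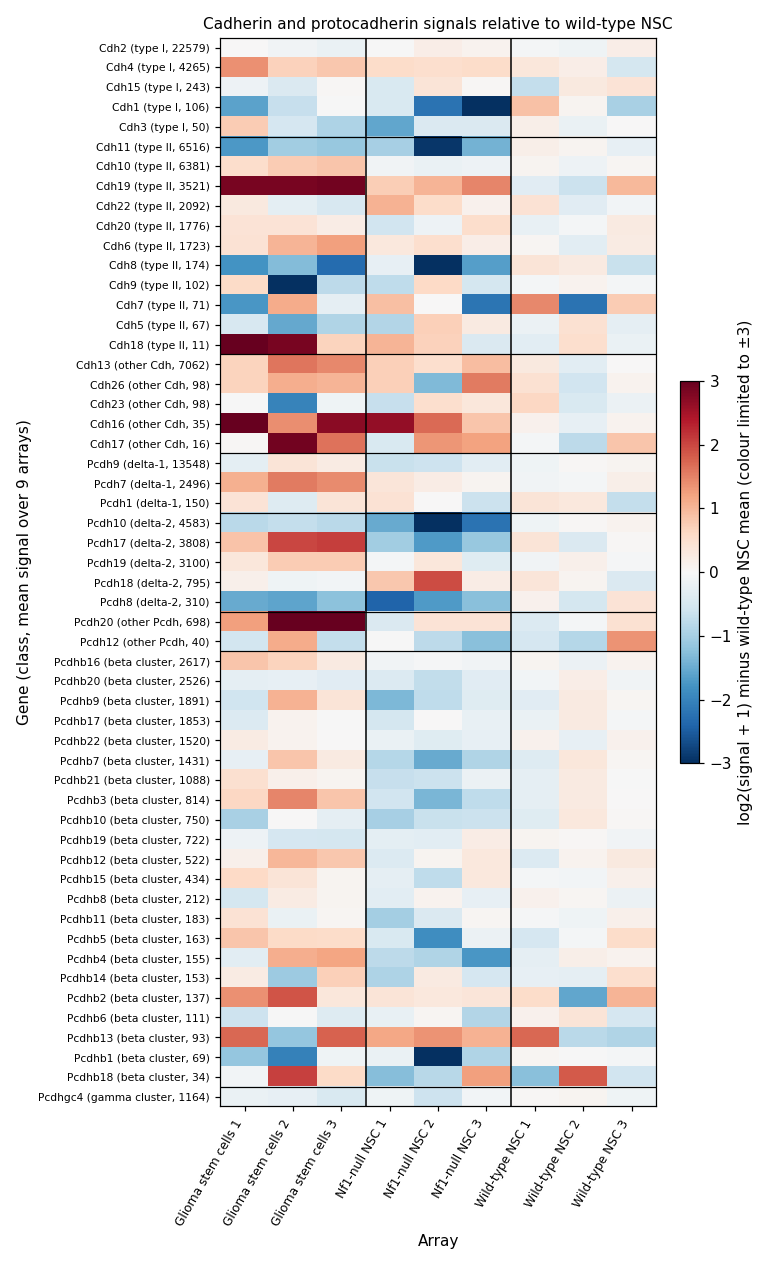
Each cell is the log2(signal + 1) of a gene on an array minus the wild-type mean, for 54 genes (rows, by class, with the mean signal over 9 arrays) and 9 arrays (columns, with GSC left, Nf1-null cells in the middle and wild-type cells right). Cdh19, Pcdh17 and Pcdh20 are high in all 3 GSC columns, Pcdh10, Pcdh8 and Cdh11 are low in all 3 Nf1-null columns, and rows with a low mean signal vary within groups.

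Type II cadherins are classical cadherins that take part in sorting neurons and glial precursors into groups. Of 11 measured, 1 rose in GSC against Nf1-null cells and 2 rose against wild-type cells, where 1.75% and 9.06% of all genes passed. Cdh19, best known from Schwann cell precursors of the neural crest in rodents, had signals of 7181.4, 7192.4 and 7454.9 in GSC, 1654.9, 2033.8 and 2771.5 in Nf1-null cells and 786.3, 639.4 and 1972.5 in wild-type cells. All 3 GSC arrays lay above every NSC array, whereas the NSC groups overlapped. Cdh19 rose 7.29-fold in GSC over wild-type cells (log2 2.87, SE 0.41, adjusted p = 0.0131), and without GSC array 2 or 3 this call was lost (2.87 and 2.85). Over Nf1-null cells the difference was 3.45-fold (log2 1.79, SE 0.41, adjusted p = 0.0889) and did not pass over all genes, but it did among the brighter genes (adjusted p = 0.0269), with a mean-variance trend and without wild-type array 3 (1.79).

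Cdh10, a type II cadherin of the brain, had signals of 7835.0, 9196.6 and 9641.0 in GSC, 5000.7, 4706.4 and 4833.8 in Nf1-null cells, and 5716.5, 4876.8 and 5624.5 in wild-type cells. The lowest GSC array was above the highest NSC array. Cdh10 rose 1.83-fold over Nf1-null cells (log2 0.87, SE 0.15, adjusted p = 0.0375), and against wild-type cells 1.64-fold (log2 0.72, SE 0.15, adjusted p = 0.0297). All 4 of its probe sets were positive over Nf1-null cells, with log2 differences of 0.65 to 1.57. The call over Nf1-null cells was lost with the mean of all probe sets (0.98), with the replicate block (adjusted p = 0.0727) and without any 1 array other than GSC array 1 (0.81 to 0.89). That over wild-type cells was lost with the mean of all probe sets (0.60), without GSC arrays 2 (0.69) or 3 (0.65) and without wild-type arrays 1 (0.76), 2 (0.64) or 3 (0.75).

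Cdh11, a type II cadherin known from mesenchyme and also present in neural tissue, ran the other way. Its signals were 3386.4, 5427.7 and 5084.2 in GSC, 5584.8, 1467.7 and 4128.6 in Nf1-null cells and 12533.1, 11675.8 and 9353.7 in wild-type cells. Every wild-type array was above every other array, and Nf1-null array 2 was the lowest. The log2 difference was -1.29 (SE 0.47, adjusted p = 0.133) in GSC against wild-type cells and -1.78 (SE 0.47, adjusted p = 0.170) in Nf1-null against wild-type cells. Neither passed over all genes. Among the brighter genes with the replicate block the second did (adjusted p = 0.0473), and without Nf1-null array 2 the first did (-1.29). Its other probe set gave -1.14 and -1.89, also without overlap of the groups.

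The other 8 type II cadherins did not pass in any comparison over all genes. Cdh6 did among the brighter genes in GSC against wild-type cells (log2 0.90, adjusted p = 0.0198). Cdh22 did there with the replicate block, lower in GSC than in Nf1-null cells (log2 -0.74, adjusted p = 0.0268) and higher in Nf1-null than in wild-type cells (log2 0.58, adjusted p = 0.0483). Its arrays overlapped in both. The 8 include Cdh5, which encodes the endothelial VE-cadherin, with signals of 53.7, 25.1 and 39.6 in GSC, 40.3, 123.6 and 91.0 in Nf1-null cells and 66.4, 103.5 and 61.7 in wild-type cells. These lie below the array medians of 264.7 to 287.4 over all probe sets. The 10 measured endothelial marker genes were all outside the brighter genes. Of these 1 fell in GSC against each other group, and their summed signals were 991.1 to 1172.2 in GSC, 1322.6 to 1693.9 in Nf1-null cells and 935.3 to 1272.2 in wild-type cells. Of the type II cadherins not named by rule, Cdh6, Cdh20, Cdh22, Cdh7, Cdh8, Cdh9 and Cdh18, signals ran from 2.3 to 3699.1, and log2 differences in GSC against wild-type cells ran from -1.81 to 2.17.

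Type I cadherins carry the main adhesive function of most epithelial and neural sheets. In the 3 comparisons 0 of 5 passed, where 1.75%, 9.06% and 0% of all genes did. Cdh2 had signals of 22541.4, 20833.9 and 19783.5 in GSC, 22283.8, 25748.9 and 24063.8 in Nf1-null cells and 21534.5, 20512.4 and 25912.1 in wild-type cells. The groups overlapped for this probe set. The 95% intervals of the log2 difference ran from -0.54 to 0.16 in GSC against Nf1-null cells and from -0.45 to 0.25 against wild-type cells. Its other bright probe set had log2 differences of 0.25 and 0.08 in these comparisons, of the opposite sign. There GSC, at 8374.5, 8989.6 and 9343.5, were above Nf1-null cells, at 6769.6, 7715.1 and 8051.4, without overlap, so the probe sets disagreed. Cdh1, which encodes the epithelial E-cadherin, had signals of 48.1, 92.2 and 148.0 in GSC, 107.6, 31.4 and 16.2 in Nf1-null cells and 274.8, 158.1 and 76.0 in wild-type cells. It was dim on most arrays and the groups overlapped.

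Cdh4, which encodes R-cadherin of the retina and brain, had signals of 7434.2, 4600.4 and 4983.9 in GSC, 4230.9, 4076.7 and 4167.3 in Nf1-null cells and 3655.3, 3265.6 and 1974.7 in wild-type cells. For this probe set the groups did not overlap, with GSC on top and wild-type cells at the bottom. In another, nearly as bright, GSC overlapped with Nf1-null cells (log2 0.44), with GSC array 2 at 4039.8 and Nf1-null array 2 at 4074.4. Both NSC groups and GSC stood in the same order of means there, with a log2 difference of 0.98 in GSC over wild-type cells. In GSC the brightest probe set was 1.93-fold over wild-type cells (log2 0.95, SE 0.28, adjusted p = 0.0749). This passed only in the fits of the brighter genes (adjusted p = 0.0240) and with a mean-variance trend. Cdh3 and Cdh15 had signals between 19.4 and 328.1 and did not pass.

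Among the other Cdh genes, Cdh13 and Cdh16 rose in GSC over wild-type cells, where 9.06% of all genes passed, and 3 of 5 did not pass. Cdh13 encodes T-cadherin, which is anchored to the membrane by a lipid and has no cytoplasmic tail. Its signals were 6566.6, 12694.8 and 11198.2 in GSC, 6767.1, 5857.0 and 7828.3 in Nf1-null cells and 5106.4, 3322.0 and 4214.3 in wild-type cells. GSC array 1 lay at the level of the Nf1-null cells, while arrays 2 and 3 were above all NSC arrays. The rise over wild-type cells was 2.35-fold (log2 1.24, SE 0.29, adjusted p = 0.0403), and 3 of its 4 probe sets were higher without overlap of the groups. The call was lost with the mean of all probe sets (0.79) and without any 1 array other than GSC array 1 (1.05 to 1.38). Cdh16, a cadherin of the kidney, had signals of 83.1, 26.4 and 66.3 in GSC, 63.6, 32.5 and 17.6 in Nf1-null cells and 10.4, 7.8 and 10.1 in wild-type cells. All these values lie below the array medians. Its log2 difference of 2.37 over wild-type cells (SE 0.54, adjusted p = 0.0373) was 1.47 with a pseudocount of 16. That call was lost without GSC arrays 1 (2.05), 2 (2.86) or 3 (2.21), Nf1-null array 2 (2.37), or wild-type arrays 1 (2.44), 2 (2.26) or 3 (2.42).

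**Figure D2:**
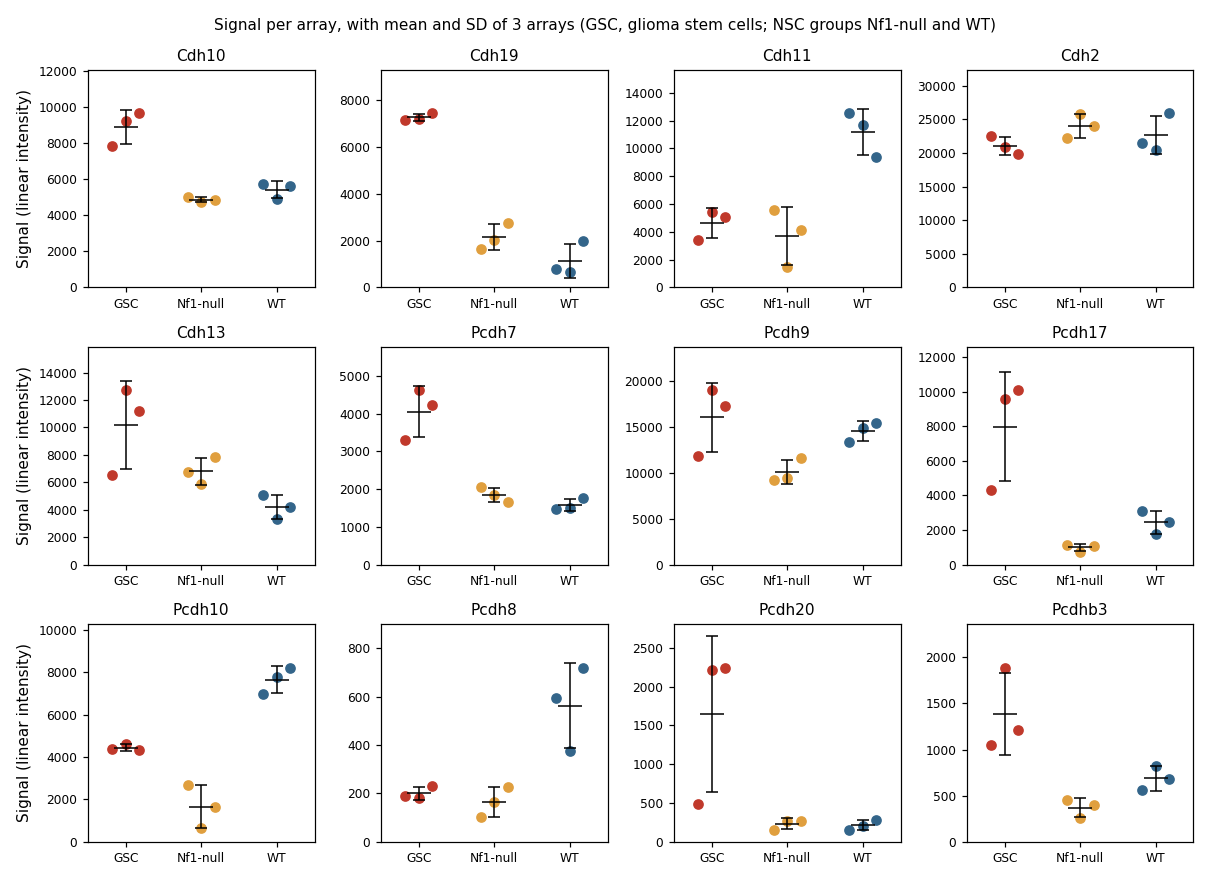
Signals of 12 genes on each of the 9 arrays (points, in the order of replicate numbers), with the mean and SD of 3 arrays (bars), on linear axes from 0; in each panel GSC stand left, Nf1-null cells in the middle and wild-type cells (WT) right. Cdh19, Cdh10, Pcdh7, Pcdh17 and Pcdh20 are highest in all 3 GSC arrays, while Cdh11, Pcdh10 and Pcdh8 are highest in wild-type cells.

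Delta-1 protocadherins have a cytoplasmic tail that can bind protein phosphatase-1. Of the 3 measured, 1 rose in both comparisons of GSC, where 1.75% and 9.06% of all genes passed. Pcdh7 had signals of 3303.8, 4616.7 and 4237.7 in GSC, 2044.2, 1843.9 and 1668.1 in Nf1-null cells and 1462.8, 1511.2 and 1775.3 in wild-type cells. Every GSC array was above every NSC array, and the NSC groups overlapped. It rose 2.17-fold over Nf1-null cells (log2 1.12, SE 0.18, adjusted p = 0.0346), and against wild-type cells 2.54-fold (log2 1.35, SE 0.18, adjusted p = 0.0112). The other 2 probe sets of Pcdh7, both dimmer, gave log2 differences of 0.38 and 0.44 over Nf1-null cells and 0.50 and 0.58 over wild-type cells. With the mean of all probe sets neither call held (log2 0.65 and 0.81). The call over Nf1-null cells was also lost with the replicate block (adjusted p = 0.0721) and without any 1 array other than GSC array 1 (1.02 to 1.19), and that over wild-type cells without wild-type array 2 (1.32).

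Pcdh9 had signals of 11831.3, 18977.7 and 17283.1 in GSC, 9180.4, 9467.2 and 11568.7 in Nf1-null cells and 13348.2, 14871.7 and 15405.9 in wild-type cells. Nf1-null cells were the lowest without overlap, and GSC overlapped with wild-type cells. The log2 difference over Nf1-null cells was 0.65 (SE 0.21, adjusted p = 0.186). It passed among the brighter genes with the replicate block (adjusted p = 0.0395) and without GSC array 1 (0.85). A second bright probe set gave 0.94 over Nf1-null cells and 0.76 over wild-type cells, where the first gave 0.11, so the probe sets disagreed on the second comparison. Pcdh1 did not pass in any comparison, with log2 differences between -0.06 and 0.20.

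Delta-2 protocadherins recruit the WAVE complex, which drives branched actin, and regulate cell movement and axon growth. All 5 members were measured. In GSC against Nf1-null cells 1 rose and 0 fell, where 1.75% of all genes passed. Against wild-type cells 1 rose and 1 fell, where 9.06% of all genes passed. In Nf1-null against wild-type cells 0 passed, while 3 of the 5, Pcdh8, Pcdh10 and Pcdh17, were lower without overlap of the groups, where 14.1% of all genes were. The median of the 5 genes, as a log2 difference from the wild-type mean, was -1.04, -1.69 and -1.14 on the Nf1-null arrays and 0.14, -0.13 and -0.08 on the GSC arrays.

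These 3 genes were lower together in Nf1-null cells, so the 250 bases before their annotated starts are shown, from RefSeq in build GRCm38.p6, read 5′ to 3′ on the gene's strand. Capitals mark a CCAAT box, the motif CCAAT on either strand (ATTGG in the strand shown), which was looked for after these sequences were read.
Pcdh17 (chr14:84443313-84443562, plus strand): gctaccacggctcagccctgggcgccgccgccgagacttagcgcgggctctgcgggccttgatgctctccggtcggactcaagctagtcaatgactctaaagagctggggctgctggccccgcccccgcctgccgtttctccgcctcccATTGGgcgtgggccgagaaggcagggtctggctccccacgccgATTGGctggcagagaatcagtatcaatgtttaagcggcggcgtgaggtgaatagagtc
Pcdh10 (chr3:45378148-45378397, plus strand): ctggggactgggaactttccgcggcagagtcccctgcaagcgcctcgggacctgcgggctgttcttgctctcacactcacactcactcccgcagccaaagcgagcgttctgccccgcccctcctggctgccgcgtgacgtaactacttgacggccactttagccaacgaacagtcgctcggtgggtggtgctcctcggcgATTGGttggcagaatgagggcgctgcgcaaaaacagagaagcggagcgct
Pcdh8 (chr14:79771313-79771562, minus strand): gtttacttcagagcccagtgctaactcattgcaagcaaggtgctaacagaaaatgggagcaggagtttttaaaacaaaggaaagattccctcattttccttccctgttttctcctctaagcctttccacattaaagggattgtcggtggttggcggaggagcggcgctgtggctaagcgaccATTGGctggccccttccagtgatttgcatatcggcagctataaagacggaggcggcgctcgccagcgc

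The CCAAT box begins 101 and 58 bases before the start of Pcdh17, 50 bases before that of Pcdh10 and 68 bases before that of Pcdh8. It was found in the same window of all 5 delta-2 protocadherins, also of Pcdh18 and Pcdh19, and in 33.8% of all 32817 promoters of the same length. Of the 19 members searched, 13 held it in at least 1 of their windows. The motif TATAAA was found in Pcdh8 and in 12.4% of all promoters, and CAGGTG, an E-box that Snail and Zeb factors can bind, in 17.2% of all promoters and in none of the 3. A match describes the letters and shows no binding.

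Pcdh17 had signals of 4324.7, 9551.2 and 10068.9 in GSC, 1155.6, 736.1 and 1085.3 in Nf1-null cells and 3126.5, 1777.0 and 2441.8 in wild-type cells. For this probe set the 3 groups did not overlap, with GSC on top and Nf1-null cells at the bottom, and GSC array 1 was less than the other 2 of its group. Its other probe set, nearly as bright, also separated GSC from Nf1-null cells (log2 2.61), but GSC overlapped with wild-type cells there (log2 0.99), with GSC array 1 at 3635.5 and wild-type array 1 at 3714.3. It rose 7.66-fold over Nf1-null cells (log2 2.94, SE 0.38, adjusted p = 0.0205), and against wild-type cells 3.13-fold (log2 1.65, SE 0.38, adjusted p = 0.0398). The first call was lost with the replicate block (adjusted p = 0.0508) and without GSC arrays 2 (2.76) or 3 (2.72) or any Nf1-null array (2.74 to 3.06). The second was lost with the mean of all probe sets (1.32) and without any 1 array (1.43 to 1.84) other than GSC array 1 or Nf1-null array 2. In Nf1-null against wild-type cells the log2 difference was -1.29 (SE 0.38, adjusted p = 0.188) and did not pass.

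Pcdh10 had signals of 4388.4, 4617.6 and 4332.3 in GSC, 2662.2, 652.2 and 1642.4 in Nf1-null cells and 6952.1, 7788.1 and 8213.9 in wild-type cells. For this probe set the groups did not overlap, and the GSC lay between the NSC groups. In Nf1-null cells it was 5.38-fold lower than in wild-type cells (log2 -2.43, SE 0.45, adjusted p = 0.0979). That did not pass over all genes, with or without the replicate block (adjusted p = 0.130), but did among the brighter genes (adjusted p = 0.0231, and 0.0200 with the block) and with a mean-variance trend (adjusted p = 0.0248). All 6 probe sets of Pcdh10 were lower in Nf1-null than in wild-type cells without overlap of the groups, by log2 differences from -3.42 to -1.30. All 6 were also higher in GSC than in Nf1-null cells, from 1.35 to 3.56. The log2 difference of 1.65 of the brightest (adjusted p = 0.133) passed among the brighter genes (adjusted p = 0.0474) and with the trend. In GSC against wild-type cells the 6 disagreed, with log2 differences from -0.78 to 0.14. There 3 were lower without overlap, the others overlapped, and 2 were positive.

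Pcdh8, known in the mouse for synapse remodelling and as paraxial protocadherin, had signals of 191.3, 180.5 and 231.1 in GSC, 102.5, 165.5 and 226.5 in Nf1-null cells and 594.3, 374.4 and 720.5 in wild-type cells. Wild-type cells were above both other groups without overlap. Pcdh8 fell in GSC to 0.369 of the wild-type level, a log2 difference of -1.44 (SE 0.34, adjusted p = 0.0429). In Nf1-null cells the difference was -1.79 (SE 0.34, adjusted p = 0.107), which passed only with a mean-variance trend (adjusted p = 0.0479). Its other probe set gave -1.37 and -1.62. The call in GSC was lost without arrays 1 (-1.41), 2 (-1.37) or 3 (-1.54) of that group, Nf1-null array 2 (-1.44), or wild-type arrays 1 (-1.37), 2 (-1.71) or 3 (-1.24).

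Pcdh19, an X-linked gene whose human form is linked to epilepsy, and Pcdh18 did not pass over all genes. Pcdh19 had signals of 3313.7, 4433.9 and 4427.7 in GSC, 2526.5, 3304.9 and 2020.6 in Nf1-null cells and 2426.3, 2908.4 and 2539.6 in wild-type cells. GSC were above both NSC groups without overlap in all 3 of its probe sets, with log2 differences of 0.65 and 0.62 for the brightest (adjusted p = 0.206 and 0.126). Among the brighter genes the difference from wild-type cells passed (adjusted p = 0.0480). Xist, which marks the inactive X chromosome, was 39079.7 to 50410.8 in GSC and was 385.6 and 587.7 on the NSC arrays numbered 3, against 30974.5 or more on the other NSC arrays. The part of sex make-up in the Pcdh19 values was not tested. Pcdh18 was 615.0, 508.9 and 527.8 in GSC, below all Nf1-null arrays (977.2, 2165.3 and 650.8), with a log2 difference of -1.02 in GSC (SE 0.43, adjusted p = 0.291). Its next brightest probe set overlapped in this comparison (log2 -1.23). Wild-type signals were 712.7, 585.4 and 412.4, and overlapped with Nf1-null cells. In Nf1-null against wild-type cells the log2 difference was 1.00 (limma, adjusted p = 0.295), and all 3 probe sets were positive (1.00 to 1.55).

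Pcdh20 had signals of 485.1, 2216.5 and 2245.9 in GSC, 151.4, 272.9 and 271.6 in Nf1-null cells and 153.6, 199.0 and 284.8 in wild-type cells. GSC arrays 2 and 3 were far above array 1, and array 1 was still above all NSC arrays. It rose 6.50-fold over wild-type cells (log2 2.70, SE 0.61, adjusted p = 0.0367). Over Nf1-null cells the log2 difference of 2.58 (SE 0.61, adjusted p = 0.0962) did not pass, but did with a mean-variance trend and without GSC array 1 (3.31). The call over wild-type cells was lost with the mean of probe sets (3.52) and without any 1 array (2.33 to 2.93) other than GSC array 1. The dimmer probe set was higher in the same arrays, at 128.8, 894.9 and 900.0 against 4.4 to 89.6 in the NSC. Pcdh12, known from endothelium, was dim on all arrays and did not pass.

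**Figure D3:**
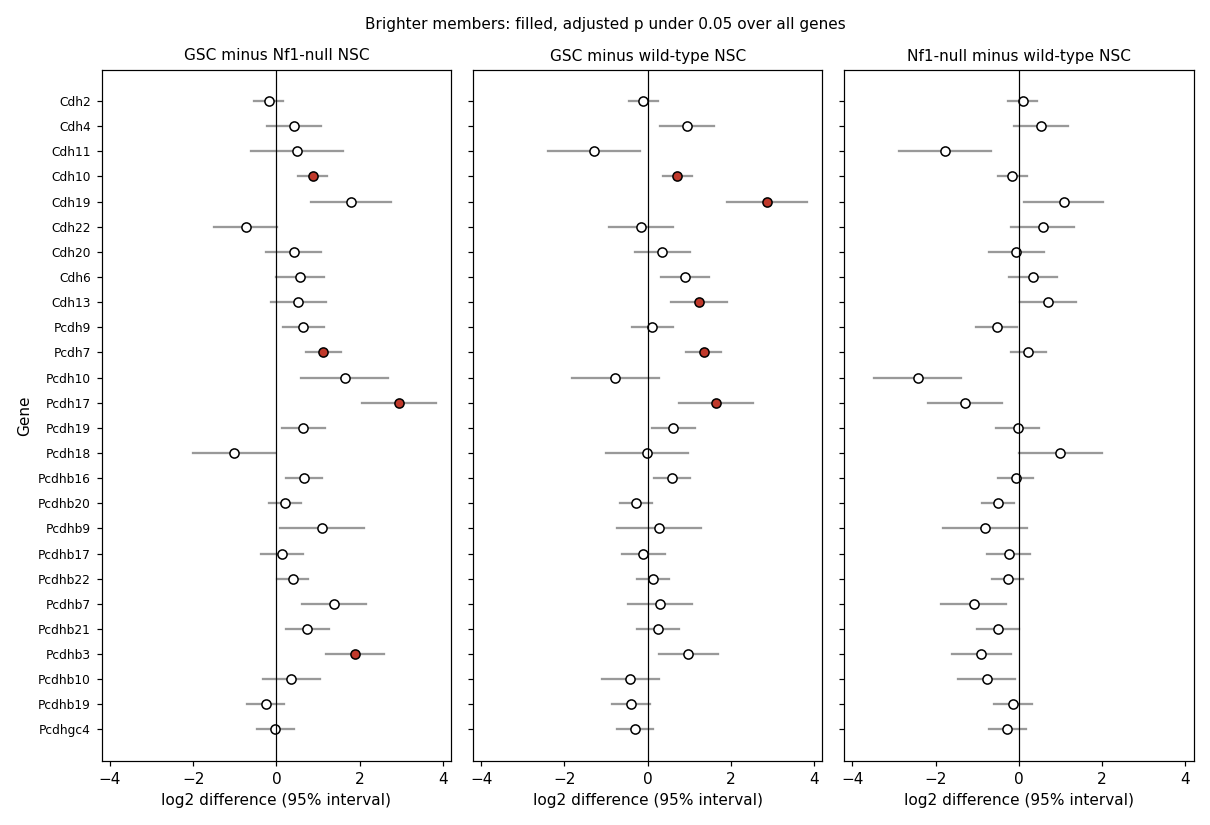
Log2 differences of the 26 brighter members with 95% intervals, in GSC minus Nf1-null cells (left), GSC minus wild-type cells (middle) and Nf1-null minus wild-type cells (right). Filled points passed an adjusted p of 0.05 over all genes: 4 on the left, 5 in the middle and 0 on the right.

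The 22 beta-cluster genes neighbour each other in the RefSeq table (GRCm38.p6) and have similar coding sequences, so signals of one member may include cross-hybridisation from another and are uncertain. Of the 22, 1 rose in GSC against Nf1-null cells, where 1.75% of all genes passed. Against wild-type cells and between the NSC groups 0 of these 22 passed, where 9.06% and 0% of all genes did. Their log2 differences were positive for 20 of 22 against Nf1-null cells (median 0.58, beside -0.04 over all genes). In Nf1-null against wild-type cells they were negative for 20 of 22 (median -0.37, beside -0.06), and against wild-type cells GSC had 14 positive and 8 negative (median 0.26). The per-array medians, relative to wild-type cells, were 0.04, 0.21 and 0.18 in GSC, -0.43, -0.53 and -0.23 in Nf1-null cells and -0.14, 0.08 and 0.04 in wild-type cells. The Nf1-null arrays were the 3 lowest. Of the 22, 7 were higher in GSC than in Nf1-null cells without overlap, where 9.24% of all genes were, and 7 were lower in Nf1-null than in wild-type cells without overlap, where 14.1% were.

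Pcdhb3 was the member that passed. Its signals were 1047.2, 1887.5 and 1213.9 in GSC, 453.4, 261.7 and 399.8 in Nf1-null cells and 558.1, 819.3 and 681.3 in wild-type cells. The 3 groups did not overlap, and Nf1-null cells were the lowest. It rose 3.69-fold over Nf1-null cells (log2 1.88, SE 0.30, adjusted p = 0.0344). The log2 difference over wild-type cells was 0.98 (SE 0.30, adjusted p = 0.0865) and did not pass over all genes. It did among the brighter genes (adjusted p = 0.0294), but Pcdhb3 is among these only through its high GSC signals. That pass is therefore no independent support. The call over Nf1-null cells was lost with the replicate block (adjusted p = 0.0770) and without any 1 array (1.64 to 2.05) other than GSC array 1. Pcdhb7 and Pcdhb16, named after their values were seen, had log2 differences of 1.38 and 0.66 over Nf1-null cells (adjusted p = 0.100 and 0.133), and both passed among the brighter genes (adjusted p = 0.0313 and 0.0445).

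**Figure D4:**
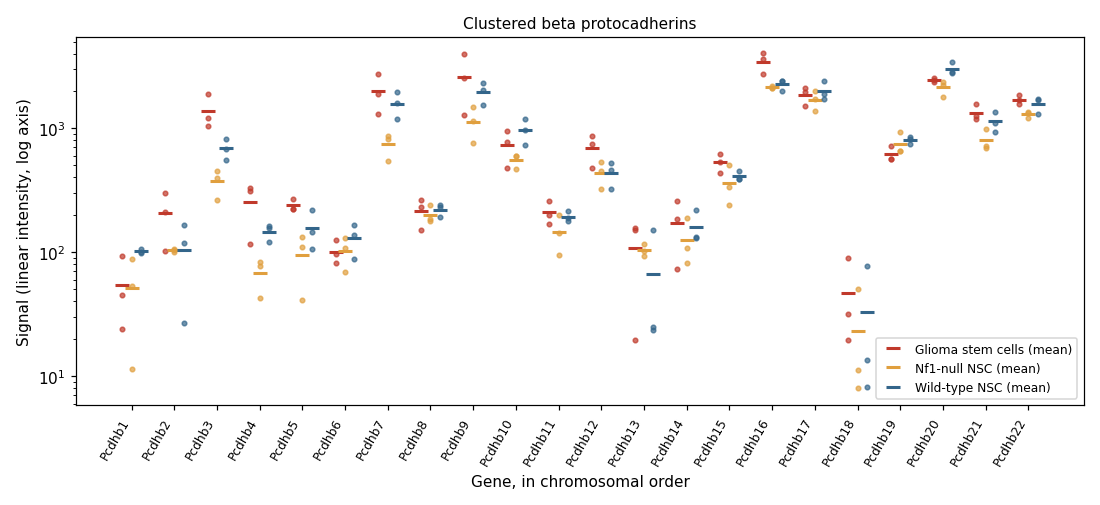
Signals of the 22 beta-cluster genes on each array (points) with group means (bars), on a log axis and in chromosomal order, with GSC left, Nf1-null cells in the middle and wild-type cells right at each gene. Most genes, Pcdhb3 and Pcdhb7 among them, have their lowest group mean in Nf1-null cells, and Pcdhb2, Pcdhb6, Pcdhb13 and Pcdhb19 do not. Levels are not comparable between genes, since each has its own probes.

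Pcdhgc4, the gamma-cluster member, had signals of 1141.3, 1112.6 and 953.9 in GSC, 1208.2, 851.9 and 1249.3 in Nf1-null cells and 1358.2, 1388.7 and 1213.2 in wild-type cells, and did not pass in any comparison. The 38 members not named by rule had 0 calls in any comparison, and their lowest adjusted p was 0.0658 in GSC against wild-type cells.

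Genes of the wider cadherin pathway were counted beside the 1.75% and 9.06% of all genes that passed in the comparisons of GSC. Of 16 catenins and junction partners, 1 fell in GSC against Nf1-null cells, and 1 rose and 1 fell against wild-type cells, with medians of 0.02 and -0.13. The desmosomal plakophilin gene Pkp2 was 83.6, 30.2 and 107.3 in GSC, against 930.1, 551.8 and 508.4 in Nf1-null cells and 513.5, 289.3 and 323.9 in wild-type cells. It fell by 3.28 on the log2 scale against Nf1-null cells (adjusted p = 0.0296) and also fell against wild-type cells (log2 -2.47). Pkp4 rose by 0.99 against wild-type cells (adjusted p = 0.0200). Ctnnb1, the beta-catenin gene, had signals of 64711.6 to 70622.0 in GSC, 63047.5 to 64970.5 in Nf1-null cells and 66088.4 to 80238.3 in wild-type cells, and did not pass. Of 20 other cadherin superfamily genes, a list without Pcdh11x, 0 passed against Nf1-null cells, and 2 fell against wild-type cells. They were the planar polarity genes Celsr1 and Celsr3, with log2 differences of -3.86 and -3.82. Of 7 Snail, Twist and Zeb genes, which repress or switch cadherins, 0 passed in any comparison. Over all genes the same held for 6 genes of cadherin cleavage, 13 regulators of the protocadherin clusters and 8 partners in protocadherin signalling. Of the 8 partners, 5 were lower and 1 was higher in Nf1-null than in wild-type cells without overlap, where 14.1% and 9.75% of all genes were. Among the brighter genes 2 of them, Cyfip2 and Wasf1, fell there (log2 -1.68 and -1.09) and 0 rose, where 2.09% fell and 2.29% rose.

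Markers of other cell types were counted in the same fit, beside the same 1.75% and 9.06% of all genes in the comparisons of GSC. Of 6 oligodendrocyte precursor markers, 1 rose in GSC against Nf1-null cells and 0 passed against wild-type cells, with summed signals of 133336 to 145223 in GSC, 86922.7 to 108003 in Nf1-null cells and 117778 to 129537 in wild-type cells. The sums, most of which came from Olig1 and Olig2, were thus lowest in Nf1-null cells, as were the signals of Pcdh10 and Pcdh17. Olig1 and Olig2 themselves differed little in Nf1-null against wild-type cells (log2 -0.15 and -0.04). All 6 markers were negative in that comparison, down to -2.87 for Pdgfra, and 0 passed over all genes. Lhfpl3 fell there among the brighter genes (log2 -1.99, limma, adjusted p = 0.0317). In GSC against Nf1-null cells all 6 were positive, and Lhfpl3 was the 1 that rose (log2 2.48, limma, adjusted p = 0.0391). In 5 oligodendrocyte markers 0 passed, and the sums were 26696.3 to 92051 in GSC, 19743 to 43989.7 in Nf1-null cells and 41677 to 62722.5 in wild-type cells. Cnp made up most of the sums in the NSC. Mbp, the myelin basic protein gene, was 2601.3, 29057.3 and 65239.2 in GSC, 376.5, 189.2 and 297.4 in Nf1-null cells and 2008.8, 495.4 and 6599.4 in wild-type cells. GSC were above Nf1-null cells without overlap (log2 5.94, adjusted p = 0.0799, and 0.0239 among the brighter genes), and GSC arrays 2 and 3 were above array 1, as they were for Pcdh17 and Pcdh20. The part of such cells in those values was not tested. Of 6 astrocyte markers 2 fell against Nf1-null cells and 3 fell against wild-type cells, with sums of 60653.2 to 70712.4 in GSC, 66641.1 to 105483 in Nf1-null cells and 111389 to 149828 in wild-type cells. The sums mix opposite changes. Against Nf1-null cells Aldh1l1 and Aqp4 fell (log2 -6.50 and -5.06), while 2 of the 6, S100b and Slc1a2, were positive (2.46 and 0.91) without passing over all genes. Of 7 neuron markers Tubb3 rose against Nf1-null cells (log2 2.13), and Rbfox3 and Snap25 fell against wild-type cells (log2 -2.65 and -1.80). The 7 summed to 36371.1 to 45195.1 in GSC, 44772.5 to 46743.5 in Nf1-null cells and 52256 to 60266.7 in wild-type cells. Map2 made up most of these sums, so they say little of the others. In these bulk samples fewer cells of a type and less RNA per cell cannot be told apart, and the part of cell make-up in the cadherin differences was not tested.

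The 4 Schwann and neural crest markers, which bear on Cdh19, had summed signals of 401.1 to 1206.6 in GSC, 596.5 to 635.3 in Nf1-null cells and 728.1 to 881.4 in wild-type cells, 0 of 4 passed and all 4 were outside the brighter genes. The sums were 401.1, 908.0 and 1206.6 on GSC arrays 1, 2 and 3, so arrays 2 and 3 lay above every NSC array and array 1 below them all. The part of such cells in the Cdh19 values was not tested. The 9 microglial markers summed to 814.3 to 1074.5 in GSC, 699.7 to 954.8 in Nf1-null cells and 964.1 to 1209.6 in wild-type cells, and 7 pericyte and fibroblast markers to 714.6 to 988.5, 1374.2 to 1954.9 and 1180.7 to 1732.6. The 6 epithelial and choroid plexus markers summed to 656.6 to 833.8, 648.5 to 1066.0 and 855.3 to 924.8 in these groups. None of these 3 lists had a member that rose in the 3 comparisons, and 1 pericyte and fibroblast marker fell in GSC against each other group.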

How the data were processed

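The deposited values were linear probe set intensities of 9 arrays. The authors' scaling gave every array the same 2% trimmed mean of 1500, and the tool behind the values is not given in the labels or files used here. Of 45101 probe sets 64 were controls, 34945 had 1 symbol, 932 several and 9160 none in the platform annotation, and no symbol changed on update. For each of 18193 genes the probe set with the highest mean log2(intensity + 1) was kept, and 25 of the 54 members had several. Group means were fitted with limma 3.58.1 (R 4.3.3) over all genes, with Benjamini-Hochberg adjustment and a threshold of 0.05. Every adjusted p is limma's, and the script was tested on simulated data. The brighter genes are the 9097 with the highest means.

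Members and lists were chosen with earlier results of these data known. Genes were named if they passed in any comparison, if they passed among the brighter genes in Nf1-null against wild-type cells, if they were among the 8 brightest members, if 3 and 3 arrays did not overlap with a log2 difference of at least 2 among the brighter genes, or as Cdh1, Cdh2, Cdh4 and Cdh5. Others were named after their values were seen. Alternatives were quantile normalization, the mean of all probe sets, brighter genes only, a mean-variance trend, a pseudocount of 16, a replicate block (alone and with brighter genes) and leaving out each array. Same-numbered Nf1-null and wild-type arrays deviated together from their group means across the brighter genes (r of 0.643, 0.243 and 0.587), as did GSC and Nf1-null arrays (0.299, 0.115 and 0.109). By this measure like numbers went together in the NSC groups, where the highest r of unlike numbers was -0.017. Deviations from a group mean cancel out within the group. Positive r of like numbers therefore makes that of unlike numbers negative on average, which is no separate evidence of pairing. Between GSC and Nf1-null arrays unlike numbers reached 0.106, close to the r of numbers 2 and 3, so pairing there is weak. The labels do not say that a number marks a shared litter or day. The number of arrays limits the precision.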

Additional observations from a re-analysis of the deposited data

Results flagged for a closer look

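In the brightest probe set of Pcdh17 every GSC array was above, and every Nf1-null array below, every wild-type array. In its other probe set GSC overlapped with wild-type cells (log2 0.99). The difference between these opposite changes is the log2 difference of 2.94 between GSC and Nf1-null cells (limma, adjusted p = 0.0205, and 0.0508 with the replicate block). Both changes share the wild-type arrays.

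Pcdhb3 showed the same order of groups, with a log2 difference of 1.88 between GSC and Nf1-null cells (limma, adjusted p = 0.0344, and 0.0770 with the replicate block). Neither of its changes against wild-type cells passed over all genes. They were 0.98 in GSC and -0.90 in Nf1-null cells (limma, adjusted p = 0.0865 and 0.210). Genes were flagged if both changes ran opposite ways without overlap and the difference between them passed. The p-values of these differences are therefore no separate support.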

How the results depend on the processing

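Of the 54 members, 4 were called in GSC against Nf1-null cells. That count was 2 with the mean of all probe sets, 8 among the brighter genes, 8 with a mean-variance trend, 0 with the replicate block and 11 among the brighter genes with the block; leaving out 1 array gave 0 to 8. Over all genes the count of 319 became 149, 607, 737, 193 and 944 under these settings, and 72 to 721 without 1 array. Against wild-type cells 8 members became 3 with the mean of all probe sets, 10 among the brighter genes, 11 with the trend, 6 with the block and 10 with both, and 1 to 7 without 1 array. Over all genes 1649 became 1083 with the mean of probe sets, 2472, 2680, 1536 and 3013, and 214 to 1756 without 1 array. These groups' numbers did not pass the pairing check (lowest r 0.052, and 0.187 for GSC array 2 with wild-type array 3). In that comparison the block ended the calls of Cdh13 (limma, adjusted p = 0.0712) and Pcdh17 (0.0699). In Nf1-null against wild-type cells 0 members became 1 among the brighter genes, 2 with the trend and 4 among the brighter genes with the block, and over all genes 0 became 398, 329 and 1081; the block alone gave 0, and leaving out 1 array gave 0 members and 0 to 1 genes. Quantile normalization and a pseudocount of 16 kept every members' count at 4, 8 and 0.

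No called difference changed sign. Of differences that were not called, Cdh2 became 0.028 in GSC against Nf1-null cells and -0.038 in Nf1-null against wild-type cells with the mean of probe sets, and ran from -0.17 to 0.00036 in GSC against wild-type cells without 1 array. Without 1 array, Pcdh20 in Nf1-null against wild-type cells ran from -0.088 to 0.40, Pcdh9 in GSC against wild-type cells from -0.022 to 0.32, Cdh11 in GSC against Nf1-null cells from -0.082 to 0.88, and Cdh5 in Nf1-null against wild-type cells from -0.30 to 0.49. The cause was not tested. Of the 54 members, 24 had a mean signal below the lowest array median, where array signal limits what can be measured.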

Other observations

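Pcdh11x, a delta-1 protocadherin whose symbol the naming rule does not cover, had signals of 3694.5, 7656.9 and 7281.3 in GSC, 978.5, 642.2 and 1952.3 in Nf1-null cells and 2837.1, 4789.6 and 3689.8 in wild-type cells. It rose in GSC over Nf1-null cells (log2 2.46, SE 0.46, limma adjusted p = 0.0491) and overlapped with wild-type cells. It was chosen after its values were seen.

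Probe sets that match several alpha-cluster protocadherins stand for no single gene. Of 6 such probe sets, the 3 brightest were lowest in Nf1-null cells. The brightest averaged 3703.5 ± 771.4 in GSC, 2039.7 ± 1117.9 in Nf1-null cells and 4805.2 ± 682.3 in wild-type cells (SD, n = 3 each). The log2 differences of these 3 in GSC against Nf1-null cells were 1.01, 1.43 and 1.46, and those in Nf1-null against wild-type cells were -1.40, -1.20 and -1.03. These were not tested.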
